A study of Sus scrofa domesticus with 150 samples.

Results

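C5orf46 and CYP4A6 are 2 of the 30461 genes of the porcine skin count table, and both were among the 17916 genes that passed a filter on low counts. They were chosen by name, after an earlier look at these same samples had placed them among the genes higher at the wound edge than in the wound center on the most days. The difference between edge and center therefore selected them and is given here as a description, without a test. C5orf46 (ENSSSCG00025051462) is annotated by that gene name as a protein-coding gene on the minus strand of contig LUXX01078624.1, positions 2313042 to 2327023. CYP4A6 (ENSSSCG00025023239) is a protein-coding gene on the plus strand of contig LUXX01042881.1, positions 181959 to 199588. It carries its symbol only through a match of its protein to a rabbit cytochrome P450, and it belongs to a family of similar genes, so reads may have been divided among copies and its values are uncertain to that extent. The genome build is not given in the sources used here, and the contig names are those of the deposited table.

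The animals were 6 female domestic pigs of a Yorkshire mix with full-thickness circular excisional wounds on the back, covered with Telfa Clear and Tegaderm. On the sampling days after wounding the animals were anesthetized. Antibiotic ointment was applied to biopsied sites, and a wound left the experiment once its tissue had been collected. The sources used here name no other treatment and no engineered allele. The 6 day 0 samples are the skin excised when the wounds were made, 1 per animal, and they serve as unwounded skin. On each of 14 days from day 1 to day 21, biopsies of the edge and of the center were taken from wounds of 3 of the 6 animals. They came from 2 wounds per animal on 10 days and from 1 wound on 4 days, which gave 72 edge and 72 center samples. Animals 1 to 3 were sampled on days 1, 3, 5, 7, 11, 15 and 21. Animals 4 to 6 were sampled on days 2, 4, 6, 9, 13, 16 and 19. A difference between days of different sets is thus also one between animals, while each phase of healing compared below holds both sets. With day 0 the samples form 29 states, with 6 samples in 21 of them and 3 in the other 8. All were sequenced as poly-A RNA to between 13133379 and 24895572 counted reads per sample. Wounds of 1 animal are not separate animals, so p-values over samples treat wounds as if they were. Ages are not given in the sources used here.

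Skin is covered by an epidermis whose basal layer divides and carries keratin 5 (KRT5), and whose suprabasal layers differentiate, switch to keratin 10 (KRT10) and form the barrier. A full-thickness wound removes epidermis, hair follicles and glands from its center, and a new epidermis grows in from the edge. C5orf46 encodes a small protein predicted to be secreted, and little is known of its function. Cytochromes P450 of family 4A are enzymes of the endoplasmic reticulum that hydroxylate fatty acids at the end of the chain and are best known from liver and kidney.

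Levels are given as log2(1 + CPM), where CPM is a gene's count scaled to a common total per sample. A gene with at most 3 counts is taken here as at the floor, and 3 counts stand for 0.121 to 0.228 CPM depending on depth. In unwounded skin C5orf46 ranged from 5.88 over a median of 7.13 to 8.03 (57.7 to 261 CPM), with a mean of 7.07 ± 0.70 (SD, n = 6). CYP4A6 ranged there from 6.77 over a median of 7.71 to 8.19 (108 to 291 CPM), with a mean of 7.61 ± 0.53 (SD, n = 6). Both genes were thus well covered in every unwounded sample, with 1236 to 4576 counts for C5orf46 and 2054 to 6224 for CYP4A6. Per length of transcript, as the authors' FPKM, they were close to each other, at 103 ± 44.1 and 90.2 ± 31.7 (SD, n = 6), against 8963 ± 2823 for KRT10 and 2828 ± 490 for KRT5. On the log2(1 + CPM) scale, day 0 was the state with the highest mean of all 29 for both genes. For means taken without the log this did not hold for CYP4A6. Its mean FPKM at the edge on days 3, 4 and 5 was 101 ± 74.1, 159 ± 156 and 110 ± 95 (SD, n = 6 each). Its mean CPM there was 258, 399 and 277, against 204 on day 0.

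**Figure D1:**
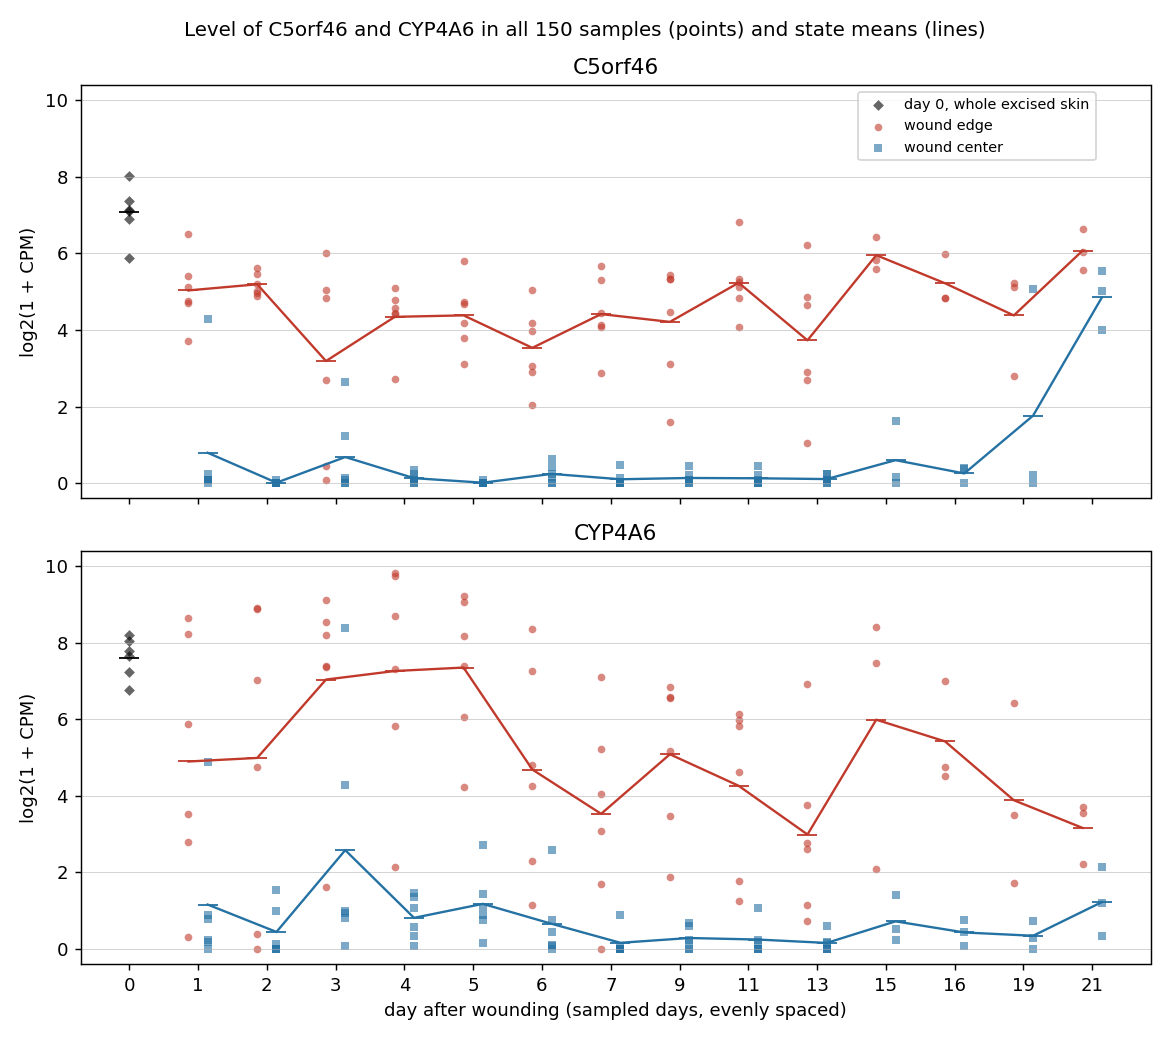
Level of C5orf46 (top) and CYP4A6 (bottom) as log2(1 + CPM) against the day after wounding, with each sample as a point and lines through the means of each state; black diamonds are day 0, red circles the wound edge and blue squares the wound center. At the edge C5orf46 lies mostly below day 0, with 64 of 72 samples under every unwounded sample. It reappears in the center in 1 of 3 samples on day 19 and in all 3 on day 21. CYP4A6 spreads at the edge from 0.00 to 9.82 and stays at or below 2.14 in the center from day 15 on.

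C5orf46 was higher at the edge than in the center of all 72 wounds, by 4.00 ± 1.67 on the log2(1 + CPM) scale (SD over wounds), and the means of the 6 animals lay between 3.54 and 4.80. The difference exceeded 1 log2 unit, that is 2-fold, in 66 wounds. CYP4A6 was higher at the edge of 70 of the 72 wounds, by 4.36 ± 2.48, with animal means between 3.31 and 5.22, and it exceeded 2-fold in 63. In the 2 remaining wounds, on day 2 (animal 6) and on day 7 (animal 1), CYP4A6 had 0 counts at both locations. The 2 genes thus share a sign in nearly every wound, but the wounds with little difference are mostly not the same. C5orf46 differed by at most 0.07 between edge and center in 4 wounds. In a day 3 wound of animal 2 it had 97 counts at both locations, and CYP4A6 was also nearly equal there, with 6542 counts at the edge and 6138 in the center. In a day 3 wound of animal 3 it had 1 count at the edge and 0 in the center. In the day 19 wound of animal 6 and the day 21 wound of animal 3 it was high at both locations, with 666 and 535 counts and with 757 and 871 counts. On day 21 the mean difference had fallen to 1.22 for C5orf46 and 1.93 for CYP4A6 (n = 3 wounds), while KRT10 differed by -0.02 and KRT5 by 0.24.

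Some samples do not look like their location. The day 3 center sample 4, from the first of these wounds, had a KRT10 level of 13.38 and a KRT5 level of 12.56, within the range of edge samples, and held C5orf46 at 2.65 and CYP4A6 at 8.38. The other 5 day 3 center samples had KRT10 between 2.76 and 9.42. The day 3 edge sample 6, from the second wound, had KRT10 at 3.30, KRT5 at 4.26 and C5orf46 at 0.07, but CYP4A6 at 7.40. This was the only edge sample in which CYP4A6 was high and the epidermal keratins were close to their level in the center, and its adipocyte list stood at 10.06, against 6.88 to 7.87 in the other day 3 edge samples. Both also correlated less with their replicates over all genes than the others of their state, with a mean Pearson's r on counts of 0.586 against 0.823 to 0.872 and of 0.669 against 0.789 to 0.873. The same held for day 2 center sample 2, at 0.425 against 0.774 to 0.802. An alternative without these 3 samples also left out day 3 edge sample 5, which at 0.873 does not stand apart.

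The genes had their highest and lowest edge means on different days, but the order of the states was hardly resolved. Among the edge states C5orf46 had its highest mean on day 21, at 6.08 ± 0.53 (SD, n = 3), and its lowest on day 3, at 3.19 ± 2.51 (SD, n = 6). Ranked by mean over all 29 states, only day 0 and day 21 edge, the first of the 28 neighbouring pairs, were further apart than the larger of their SDs. CYP4A6 had its highest edge mean on day 5, at 7.35 ± 1.93, and its lowest on day 13, at 2.99 ± 2.23 (SD, n = 6 each). None of the 28 neighbouring pairs of CYP4A6 exceeded that spread. Apart from day 0 standing first for C5orf46, the order of the states is thus not resolved for either gene. The median SD within an edge state was 0.92 for C5orf46 and 2.46 for CYP4A6.

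The question of whether the edge keeps the level of unwounded skin was addressed by comparing phases of healing with day 0 in a fit across all genes. C5orf46 was called lower at the edge than in unwounded skin in each phase until day 16. At the edge on days 1 to 4 it ranged from 0.07 over a median of 4.86 to 6.51 (n = 24), and 22 of the 24 samples lay below every unwounded sample. On days 5 to 9 it ranged from 1.59 over 4.18 to 5.79 and all 24 samples lay below every unwounded sample. The early edge thus hardly overlapped with unwounded skin. The log2 fold changes were -2.45 (SE 0.54) and -2.77 (SE 0.54), with adjusted p = 7.16e-05 and 5.13e-06 (edgeR quasi-likelihood test, Benjamini-Hochberg), which is 5.46-fold and 6.83-fold lower. On days 11 to 16 the edge samples ranged from 1.05 over 4.99 to 6.81 (n = 18), and on days 19 to 21 from 2.79 over 5.39 to 6.63 (n = 6). In the same edgeR fit the log2 fold changes were -1.74 (SE 0.60, adjusted p = 0.0157) and -1.57 (SE 0.79, adjusted p = 0.118). The later ranges overlap with day 0, with 14 of 18 and 4 of 6 samples below every unwounded sample. In all 6 animals the edge mean of each phase lay below that animal's own day 0 sample. The call of days 11 to 16 was lost when the samples numbered 2 of every state were left out, at -1.47 and adjusted p = 0.111 in edgeR, and with DESeq2 (-1.78, adjusted p = 0.0757). That of days 19 to 21 passed with limma on log2(1 + CPM) (-1.85, adjusted p = 0.0091) and when fitted on that phase and day 0 alone (adjusted p = 0.00808, edgeR).

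CYP4A6 was not uniformly lower at the edge. On days 1 to 4 it ranged from 0.00 over a median of 7.33 to 9.82 (n = 24), with 10 samples above every unwounded sample and 10 below every one. The highest sample, on day 4, held 17026 counts or 904 CPM, and 1 sample of day 2 held 0 counts. The edgeR log2 fold change against day 0 was 0.03 (SE 0.93, adjusted p = 0.986), and it changed sign between alternatives, from -1.56 (limma) to 0.13. Later the high samples became fewer. On days 5 to 9 CYP4A6 ranged from 0.00 over 5.19 to 9.22, with 3 of 24 samples above every unwounded sample, and on days 11 to 16 from 0.73 over 4.56 to 8.40, with 1 of 18. On days 19 to 21 it ranged from 1.71 over 3.53 to 6.43, and all 6 samples lay below every unwounded sample. The log2 fold changes were -1.30 (SE 0.85, adjusted p = 0.19), -1.84 (SE 0.91, adjusted p = 0.102) and -3.37 (SE 1.29, adjusted p = 0.0325) in edgeR. On the log2(1 + CPM) scale, which weighs low samples more, limma called the middle phases too, at -2.45 (adjusted p = 0.0179) and -2.94 (adjusted p = 0.00882). Without the samples numbered 5, edgeR gave -2.47 for days 11 to 16 (adjusted p = 0.0222). Without those numbered 2 or 3 the last phase missed the threshold, at -3.20 (adjusted p = 0.126) and -3.29 (adjusted p = 0.11).

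Thus 1 of the 2 genes was called lower at the edge in each phase. Over all genes tested, 24.8% were called lower at the edge than on day 0 on days 1 to 4, 26.8% on days 5 to 9, 17.4% on days 11 to 16 and 16.3% on days 19 to 21, so a call of this kind is common in this fit. The wound samples are those in which the genes were chosen, by edge against center, and the effect of that choice on these differences was not tested. Day 0 samples are excised skin and edge samples are small biopsies, so a change in a cell and a change in the tissue caught cannot be told apart. In bulk samples, fewer cells of a type and less RNA per cell cannot be told apart either.

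For the epidermal keratins no difference between edge and unwounded skin passed the test. KRT10, the filament protein of differentiating keratinocytes, ranged at the edge on days 1 to 4 from 3.30 over 13.99 to 14.33, against 13.12 over 14.14 to 14.75 in unwounded skin. Its log2 fold changes at the edge were -0.44, -0.73, 0.07 and 0.12 over the 4 phases, with adjusted p from 0.299 to 0.952 in edgeR. KRT5, the keratin of the basal layer, gave 0.07, -0.14, -0.24 and -0.80, with adjusted p from 0.554 to 0.953. On days 19 to 21, however, KRT5 lay below every unwounded sample in 6 of 6 edge samples and below the animal's own day 0 sample in 6 of 6 animals, by 1.07 ± 0.60 (SD), so its missed threshold does not show an unchanged level. The change of C5orf46 minus that of KRT10, taken per animal from its own day 0 sample, was -1.93 ± 0.99, -2.19 ± 0.61, -1.90 ± 0.91 and -1.71 ± 0.87 (SD, n = 6 animals). It was negative in 6 of 6 animals in every phase (exact two-sided sign-flip test, p = 0.0312 each, the smallest 6 animals can give, adjusted p = 0.0417 over 8 comparisons). For CYP4A6 the same difference was -0.86 ± 2.17 on days 1 to 4 (4 of 6 animals, p = 0.375), -1.70 ± 1.21 (6 of 6, p = 0.0312, adjusted 0.0417), -2.96 ± 2.02 (5 of 6, p = 0.0625, adjusted 0.0714) and -3.96 ± 1.60 (6 of 6, p = 0.0312, adjusted 0.0417), by the same exact permutation test. This quantity was chosen after the values had been seen.

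**Figure D2:**
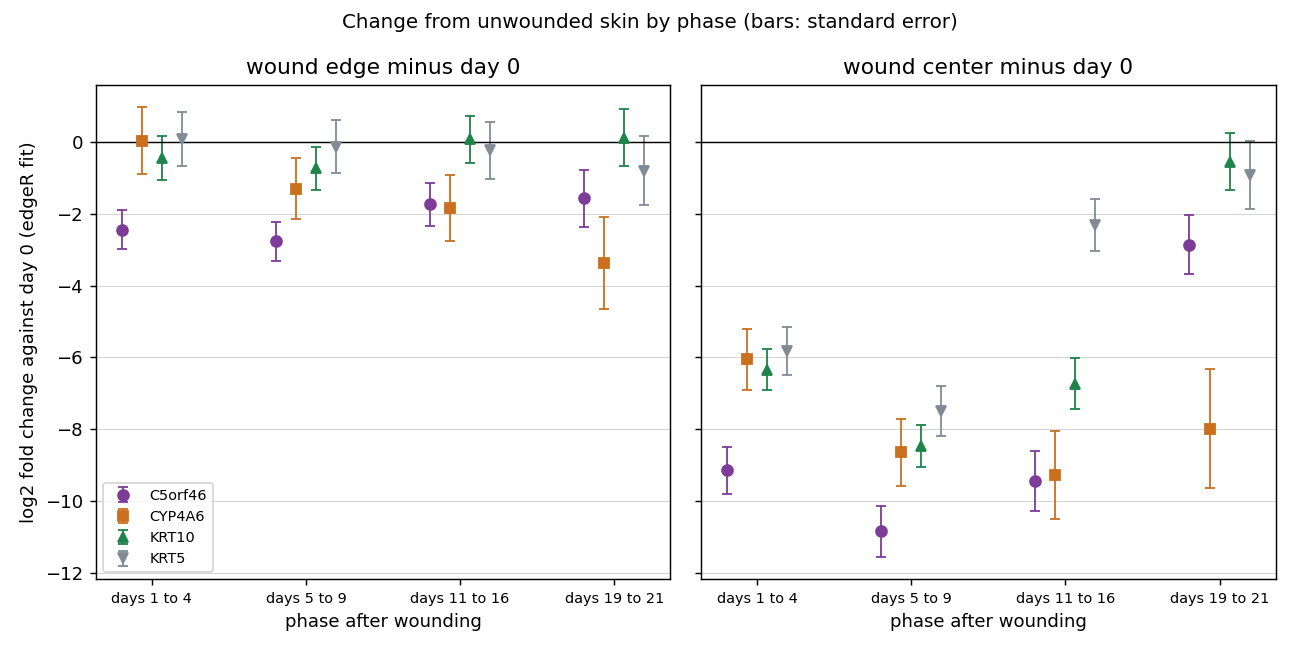
Fitted log2 fold change against day 0 (vertical axis) in 4 phases after wounding (horizontal axis) at the wound edge (left) and in the wound center (right) for C5orf46, CYP4A6, KRT10 and KRT5, with bars for the standard error. At the edge the keratins sit near 0 while C5orf46 lies between -2.77 and -1.57 and CYP4A6 goes from 0.03 to -3.37; in the center KRT5, KRT10 and C5orf46 come back toward 0 by days 19 to 21 and CYP4A6 remains at -7.99.

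In the wound center both genes nearly vanished. From day 1 to day 13, C5orf46 had at most 3 counts in 51 of 60 center samples and 0 counts in 28, with a median of 0.07. CYP4A6 had at most 3 counts in 31 of 60 and 0 in 17, with a median of 0.22. At so few counts a low level and a complete absence are not distinguishable, and the fitted values below rest on few reads. The keratins stayed measurable, since KRT10 had at least 107 counts and KRT5 at least 25 in every center sample. The log2 fold changes against day 0 on days 1 to 4, 5 to 9 and 11 to 16 were -9.15 (SE 0.66), -10.85 (SE 0.71) and -9.44 (SE 0.83) for C5orf46. For CYP4A6 they were -6.06 (SE 0.85), -8.64 (SE 0.93) and -9.28 (SE 1.23), and for KRT10 -6.34, -8.47 and -6.74. Both genes were called lower in these phases by edgeR, beside 34.1%, 36.6% and 33.6% of all genes tested, but low center levels took part in choosing them, so nothing is read from these calls and no p is given. Without these 4 samples, the first value was -9.58 for C5orf46 and -6.99 for CYP4A6.

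In the early center the samples highest in C5orf46 had much keratin, but not all of those highest in CYP4A6 did. In the day 1 center sample 5, KRT10 stood at 12.61 and KRT5 at 11.81, and C5orf46 was at 4.28 and CYP4A6 at 4.88. The other 5 day 1 center samples had KRT10 between 5.52 and 7.09, C5orf46 at or below 0.25 and CYP4A6 at or below 0.89. The day 3 center samples 4 and 2 were the next highest for C5orf46, at 2.65 and 1.23, and the second of them had KRT10 at 9.42 and CYP4A6 at 4.29. CYP4A6 also reached 2.71 on day 5 and 2.58 on day 6 in samples with KRT10 at 5.24 and 7.92, where C5orf46 was at 0.00 and 0.64. The day 5 value of KRT10 was below the median of its state, 5.42. The suprabasal list mean was 7.68 in the day 1 sample against 2.39 to 3.21 in its replicates. It was 8.11 and 4.84 in day 3 center samples 4 and 2 and 3.36 in the day 6 sample, but 1.94 in the day 5 sample.

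Late in healing the epidermal genes came back to the center. The order in which they did so was known before from these data and is described here. Days 15 and 21 came from animals 1 to 3 and days 16 and 19 from animals 4 to 6. Between days of different sets, time and animals cannot be told apart. KRT5 returned first, with center samples on day 15 at 12.30, 11.83 and 8.11 and on day 16 at 12.80, 3.67 and 10.21. On those days KRT10 was at 10.49, 10.03 and 5.68 and at 8.91, 5.16 and 6.10. C5orf46 was then at 1.63, 0.17 and 0.00 and at 0.37, 0.00 and 0.39. Thus on days 15 and 16 basal keratin had reached the range of the edge in some centers while C5orf46 had not passed 32 counts in any. On day 19 the center of animal 6 held KRT10 at 14.10 and C5orf46 at 5.07 (535 counts), whereas animals 4 and 5 had KRT5 at 12.54 and 12.45 but KRT10 at 11.85 and 7.33 and C5orf46 at 0.00 and 0.22. On day 21 all 3 centers held KRT10 at 13.93, 14.08 and 14.42, within the range of unwounded skin, and C5orf46 at 3.99, 5.02 and 5.54. All 3 values of C5orf46 lay below every unwounded sample, and they were lower than at the edge of the same wounds, which stood at 6.63, 6.03 and 5.56, by 2.64, 1.01 and 0.02. The mean of day 21 center was 4.85 ± 0.79 (SD, n = 3) against 7.07 on day 0 for C5orf46, compared with 14.14 against 14.11 for KRT10 and 11.56 against 12.99 for KRT5.

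CYP4A6 did not come back. In the center it was at 1.40, 0.53 and 0.23 on day 15, at 0.76, 0.08 and 0.45 on day 16, at 0.74, 0.29 and 0.00 on day 19 and at 1.19, 2.14 and 0.34 on day 21. The highest of these is 59 counts, against at least 2054 counts in every unwounded sample. For days 19 to 21 in the center, the log2 fold change was -2.86 (SE 0.83) for C5orf46, -7.99 (SE 1.66) for CYP4A6, -0.55 (SE 0.80) for KRT10 and -0.92 (SE 0.95) for KRT5. Both genes were called lower beside 22.9% of all genes tested, and as in the earlier phases nothing is read from these calls, since the samples took part in the choice. The value of C5orf46 depended on the samples left out. It was -6.49 without the samples numbered 3, which include the day 19 center of animal 6. Without those numbered 2 it was -2.34 and lost the call (adjusted p = 0.0646, edgeR). Each number was also left out of day 0, and the day 0 sample numbered 2 was the highest for C5orf46, at 8.03. CYP4A6 stayed between -8.51 and -7.45 with each number left out.

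**Figure D3:**
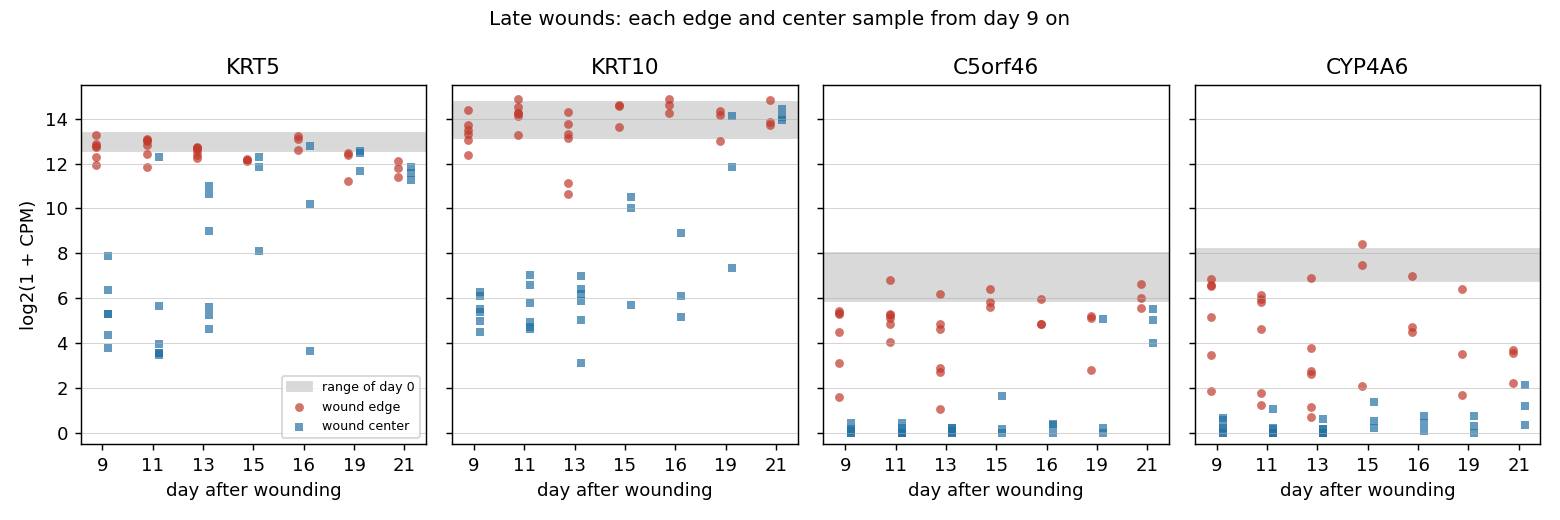
Level as log2(1 + CPM) of KRT5, KRT10, C5orf46 and CYP4A6 (panels from left to right) against the day after wounding from day 9 on, with red circles for edge and blue squares for center samples and a grey band for the range of the 6 unwounded samples. KRT5 is high in some centers from day 11, KRT10 enters the grey band on days 19 and 21, C5orf46 reaches 3.99 to 5.54 on day 21, under its band, which begins at 5.88, and CYP4A6 does not exceed 2.14 in the center.

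C5orf46 was strongly linked to KRT10 at both locations, and CYP4A6 was only weakly linked to either keratin at the edge. These links were likewise known before. Over the 72 edge samples C5orf46 correlated with KRT10 with Pearson's r = 0.721 and Spearman's rho = 0.770, and r was 0.839 without the 2 samples farthest from the KRT10 median. With KRT5 its r was 0.395 and rho 0.075, and r fell to 0.164 without the 2 farthest samples, so that relation rests on them. Over the 72 center samples r was 0.854 with KRT10 and 0.564 with KRT5, with C5orf46 near 0 in most of these samples. For CYP4A6 at the edge, r was 0.066 with KRT10 and 0.003 with KRT5, and 0.231 and 0.167 without the 2 samples farthest from the keratin's median. In the center it was 0.490 and 0.379, or 0.607 and 0.316 without such samples. C5orf46 and CYP4A6 correlated with each other with r = 0.185 at the edge and 0.394 in the center, and the latter was 0.198 or 0.589 without the 2 samples farthest from the median of CYP4A6 or of C5orf46. After removing the state means, over 150 samples, r was 0.645 for C5orf46 with KRT10, 0.308 for CYP4A6 with KRT10 and 0.374 between the genes. These samples share animals, wounds and libraries, so no p is given.

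**Figure D4:**
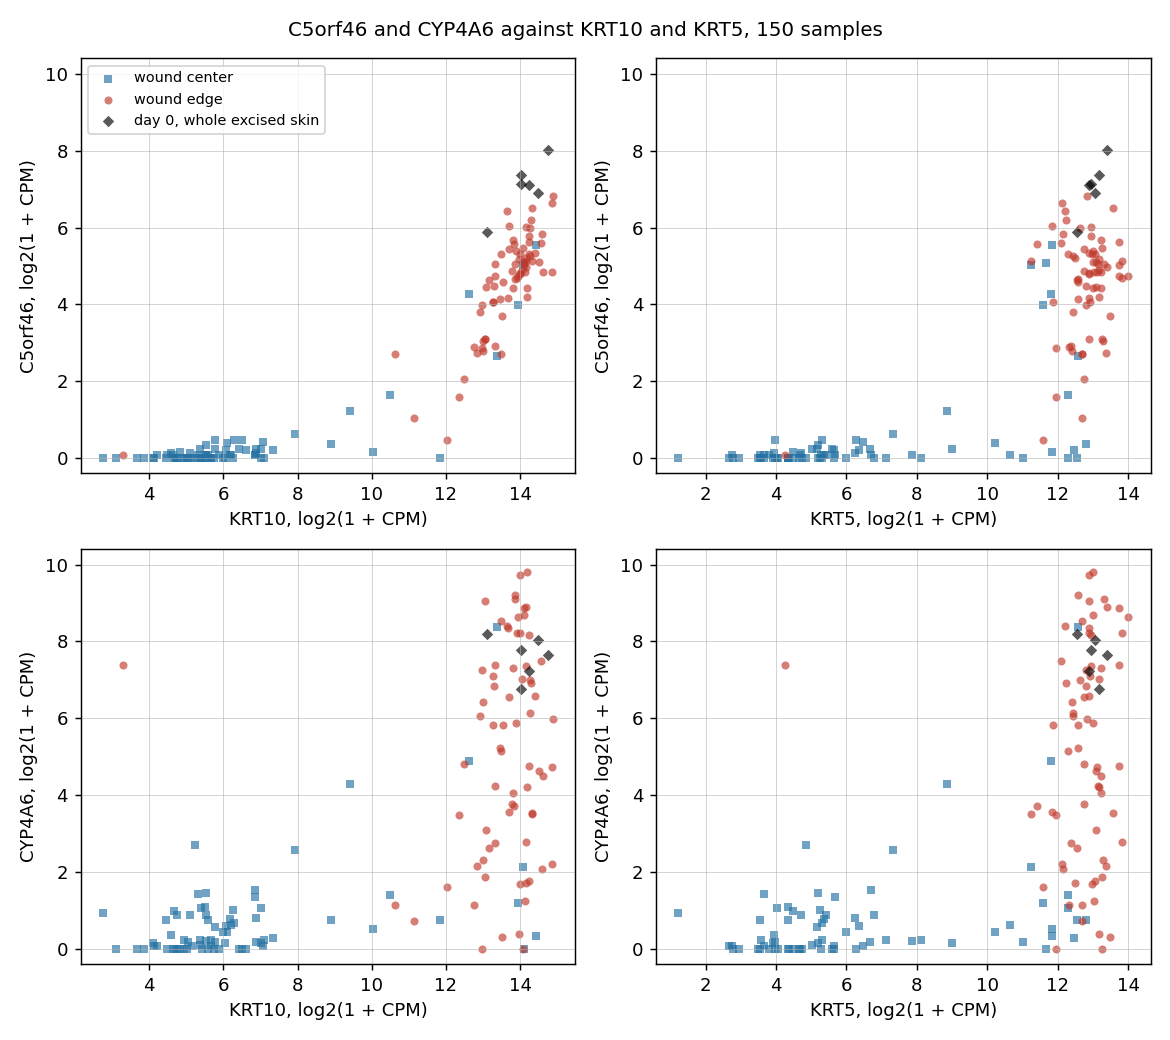
C5orf46 (top) and CYP4A6 (bottom) against KRT10 (left) and KRT5 (right), all as log2(1 + CPM), in 72 edge (red circles), 72 center (blue squares) and 6 unwounded samples (black diamonds). C5orf46 stays below 3 where KRT10 is below 12 and near 0 in several centers with high KRT5, while CYP4A6 covers its whole range at nearly constant KRT10 and in 1 edge sample reaches 7.40 with KRT10 at 3.30.

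At the edge CYP4A6 differed widely from wound to wound. Between the wounds of the same animal on the same day, the edge levels of CYP4A6 differed by a median of 3.10 (n = 30 pairs of wounds), compared with 2.51 between wounds of different animals on the same day (n = 120 pairs). The corresponding medians were 1.13 and 1.11 for C5orf46, 0.64 and 0.45 for KRT10 and 0.34 and 0.40 for KRT5. The wounds of an animal differed by more than 4-fold in 21 of 30 pairs for CYP4A6 and in 9 of 30 for C5orf46. On day 2, for example, CYP4A6 was at 8.90 and 7.02 in animal 4, at 8.87 and 4.75 in animal 5 and at 0.39 and 0.00 in animal 6. C5orf46 ranged only from 4.89 to 5.62 in the same 6 edge samples, and KRT10 from 13.98 to 14.24.

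Different genes were most like C5orf46 and most like CYP4A6, although these were themselves alike over the state means (r = 0.811). Over the 29 state means, the genes closest to C5orf46 were ELMOD1, a GTPase-activating protein of Arf family proteins (r = 0.990), SULT1E1, the estrogen sulfotransferase (0.988), KLK1, a tissue kallikrein protease (0.988), CLDN23, a claudin of cell junctions (0.987), and MUC15, a membrane mucin (0.986). Within states, after removing the means, r with C5orf46 was 0.879 for ELMOD1, 0.779 for SULT1E1, 0.774 for KLK1, 0.770 for CLDN23 and 0.695 for MUC15, so the likeness was not only that of the state means. These genes too were low in early centers, with medians of 0.08 to 0.17 over the 72 center samples, and present on day 21, with center means of 2.59 for KLK1 to 5.19 for SULT1E1. KRT10 ranked 100th by this measure (r = 0.960), KRT5 960th (0.873) and CYP4A6 1505th (0.811). ACER1, a ceramidase of the epidermis (0.985), and STS, the steroid sulfatase (0.984), were also close and are named after their values were seen.

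Closest to CYP4A6 were CHIA, the acidic chitinase (r = 0.982), CP, the copper protein ceruloplasmin (0.981), SULT1C4, a sulfotransferase (0.976), FOXA1, a transcription factor of glandular epithelia (0.975), and GLYATL2, a glycine N-acyltransferase (0.972). Their r with CYP4A6 within states was 0.952, 0.911, 0.922, 0.925 and 0.899. CHIA thus followed CYP4A6 from wound to wound, including the samples that departed from their replicates. In the day 3 edge sample 6 with almost no KRT10, CHIA was at 6.44, CP at 6.41 and FOXA1 at 3.17. In the day 2 edge samples of animal 6 with CYP4A6 at 0.39 and 0.00, CHIA was at 0.34 and 0.00 and FOXA1 at 0.00 in both. On day 21 in the center CHIA averaged 0.38, CP 0.33 and FOXA1 0.00, against 8.11, 9.91 and 4.44 in unwounded skin. ABCC11, the transporter of apocrine glands (0.971), and SPDEF, a transcription factor of secretory epithelia (0.951), were also close and are named after their values were seen. Of the 50 genes most like each gene, 0 were shared. Unrelated lists of 50 out of 17916 genes tested would also share hardly any, so nothing is read from this count. All these correlations run over the same libraries and say nothing of shared function or control.

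**Figure D5:**
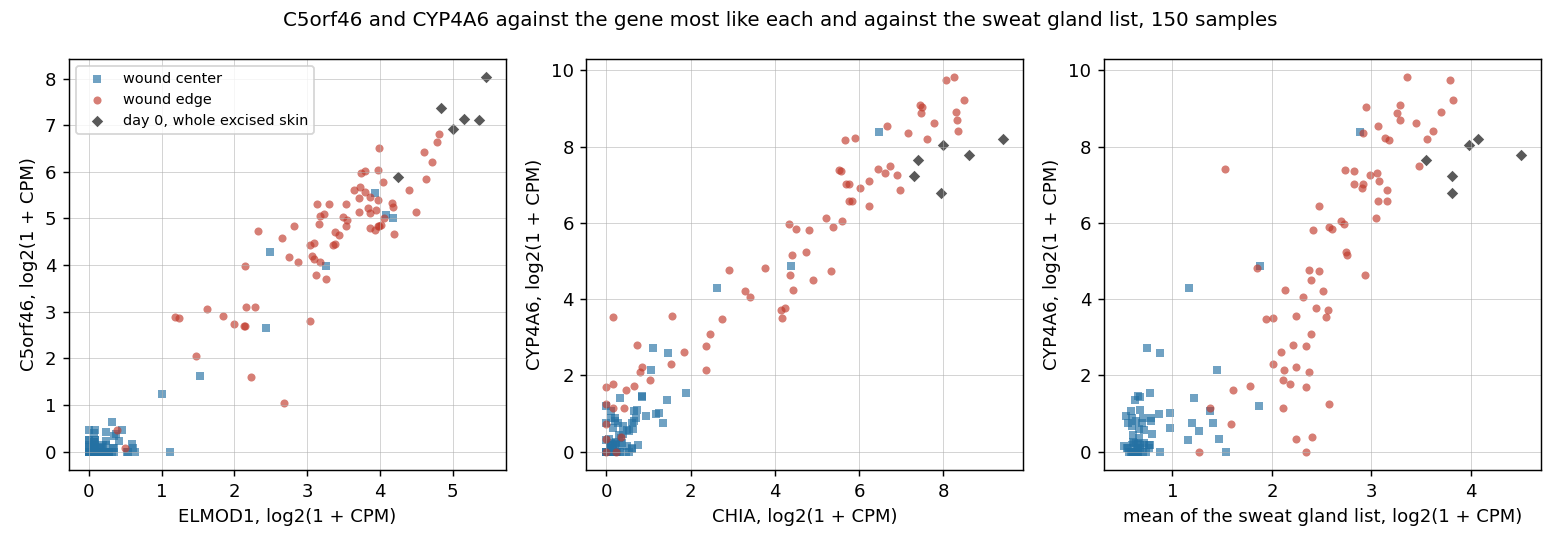
C5orf46 against ELMOD1 (left), CYP4A6 against CHIA (middle) and CYP4A6 against the mean of the sweat gland list (right), all as log2(1 + CPM), in edge (red circles), center (blue squares) and unwounded samples (black diamonds). Each gene follows the gene most like it over nearly its whole range, with r = 0.871 and 0.962 over the 72 edge samples. Over these samples CYP4A6 follows the gland list with r = 0.818, against 0.469 for C5orf46, and in the center the values are 0.710 and 0.712.

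Marker lists were set beside the genes for the cells that an edge biopsy can hold. Among genes of the suprabasal epidermis, 23 of 25 tested were higher at the edge than in the center over all days and 1 was lower, with a median log2 fold change of 4.84, compared with -0.01 over all genes tested, of which edgeR called 32.5% higher at the edge and 33.8% higher in the center. Over the edge samples, C5orf46 correlated above 0.5 with 18 of these 25 genes and CYP4A6 with 0 of them. The largest differences in that list were those of KRT77, a keratin of suprabasal and sweat duct cells (7.00), and of 2 filaggrin-2 genes (7.03 and 6.22). Of the basal epidermis list, 10 of 11 genes were higher at the edge (median 2.72), led by KRT5 (4.40), TP63, the master regulator of stratified epithelia (4.34), and COL17A1, a hemidesmosome collagen (4.21). C5orf46 correlated above 0.5 with 2 of these 11 and CYP4A6 with 0.

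Of the sweat gland list, 12 of 13 genes tested were higher at the edge (median 4.22), led by KRT77 (7.00), CA6, a secreted carbonic anhydrase (6.53), and SCGB2A2, a secretoglobin (6.50). Only 13 of the 17 symbols of this list were found, so it is incomplete. Over the edge samples the list mean correlated with r = 0.818 with CYP4A6 and 0.469 with C5orf46, and in the center with 0.710 and 0.712. Gene by gene at the edge, the median r was 0.37 for CYP4A6 and 0.12 for C5orf46. The members of the list split in their relation to CYP4A6 over the edge samples. KRT18 (r = 0.896), KRT7 (0.891) and 1 of 2 KRT8 genes (0.764), keratins of simple and glandular epithelia, and SCGB2A2 (0.740) followed it, and with SLC12A2 these were the 5 genes above 0.5. The sodium channel subunits SCNN1B (-0.074) and SCNN1G (-0.225) did not. C5orf46 correlated above 0.5 with 3 genes of the list, KRT77 (0.683), SCNN1B (0.530) and CA6 (0.528). These list members other than KRT77, CA6 and SCGB2A2 are named after their values were seen. The mean of the list was 3.55 to 4.50 in unwounded skin and 1.27 to 3.82 at the edge up to day 13. It was 1.78 to 2.56 at the edge on days 19 to 21, when CYP4A6 was below every unwounded sample, and its part in that difference was not tested. The list was also split in the centers of days 19 to 21, where its mean was 1.16 to 1.87. SCGB2A2 had 0 counts there in 6 of 6 samples and KRT18 in 5 of 6, while AQP5, a water channel, SCNN1B and SCNN1G had counts in all 6, with medians of 4.45, 4.12 and 2.25.

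The other lists followed either gene to different degrees. Over the edge samples, the list mean of the hair follicle correlated with r = 0.477 with CYP4A6 and 0.257 with C5orf46, and in the center with 0.754 and 0.345. The center values include day 3 center sample 4, which did not look like its location, with the list at 4.95 and CYP4A6 at 8.38. From day 5 on the list did not exceed 0.90 in any center, and r without that sample was not computed. Of its 15 genes tested, 7 were called higher at the edge, but 7 others had a standard error above 10 on the log2 scale, taken as not usable, and the median over the 8 with a usable one was 3.94. For the sebaceous gland, 5 of 15 genes were higher at the edge and 7 higher in the center (median 0.05, or -0.37 over the 13 with a usable standard error), with r = 0.499 for CYP4A6 and 0.150 for C5orf46 at the edge and 0.441 and 0.187 in the center. The wound keratinocyte list, of which under 80% of the symbols were found, was higher at the edge with 7 of 7 genes (median 3.09), and its r was negative with both, at -0.169 for CYP4A6 and -0.213 for C5orf46. Of 10 neutrophil and monocyte genes, 9 were higher in the center and 1 at the edge (median -1.34), with r = -0.462 for C5orf46 and 0.045 for CYP4A6. Fibroblast genes were higher in the center in 8 of 10 cases (median -0.25), skeletal muscle genes in 3 of 9, of which 5 had a usable standard error (median -2.46 over these), and adipocyte genes in 1 of 7 (median -0.26), the last from an incomplete list.

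Relatives of CYP4A6 differed among themselves. Of the 29 symbols of this list 9 were found, so it is incomplete. Besides CYP4A6, 9 genes of cytochrome P450 family 4 were tested, of which 5 were higher at the edge and 2 higher in the center (median 1.03, or 0.94 over the 8 with a standard error of at most 10). Over the edge samples the list mean correlated with CYP4A6 with r = 0.693, and 4 of the 9 genes were above 0.5 (median 0.41). CYP4F22, which hydroxylates very long fatty acids for the ceramides of the skin barrier, was higher at the edge by 2.91 (SE 0.20, adjusted p = 1e-27, edgeR) and had returned in the day 21 center, at 6.65 against 6.64 on day 0. Its r over the edge samples was 0.536 with C5orf46 and -0.059 with CYP4A6. CYP4B1 was higher at the edge by 1.04 (SE 0.24, adjusted p = 6.91e-05), stood at 5.92 on day 0 and 1.23 in the day 21 center, and had r = 0.525 with CYP4A6. The 2 genes matched to the rodent protein Cyp4f6 were higher at the edge by 1.03 and 1.19, with r = 0.540 and 0.599 with CYP4A6, and CYP4F11 by 0.85 at a mean level of 0.25. CYP4F2 (-1.04) and CYP4V2 (-0.39) were higher in the center. CYP4A21, the only other 4A gene found by name, was hardly expressed, with a mean of 0.21 at the edge and 0.22 in the center (log2 fold change 0.44, SE 0.32, adjusted p = 0.236, edgeR). CYP4X1 was detected at a mean of 0.72 at the edge and 0.05 in the center, too low for a usable fit, and had r = 0.859 with CYP4A6.

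Receptors and enzymes of fatty acid oxidation, a program of which family 4A enzymes are known targets in liver, showed no common direction. Of 19 genes tested, 9 were higher at the edge and 6 higher in the center (median 0.08), and none correlated above 0.5 with CYP4A6. The largest differences were those of FABP5, an epidermal fatty acid binding protein (1.26), PPARA, the receptor that drives the program (1.17), and ANGPTL4, a lipase inhibitor (-0.60). POR, the reductase that feeds electrons to P450 enzymes, was slightly higher in the center (-0.29).

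The surroundings of the genes on their contigs were mixed. The nearest tested neighbour of C5orf46 at higher positions on the contig was SPINK5, an inhibitor of the proteases that shed the cornified layer, which was higher at the edge by 4.84 (SE 0.35, adjusted p = 7.17e-26, edgeR) and had r = 0.948 with C5orf46 over the state means. An unnamed gene inside SPINK5 on the opposite strand followed it (4.42), and without a stated strand setting its reads cannot be told from those of SPINK5. On the other side JAKMIP2 (0.17, adjusted p = 0.467), DPYSL3, a cytoskeletal protein of mesenchymal and nerve cells (-0.59, adjusted p = 3.48e-09), and STK32A (-0.08, adjusted p = 0.845) included no gene called higher at the edge. Of the 9 genes tested of the corresponding human region besides C5orf46, 5 were higher at the edge and 1 higher in the center (median 0.21). The protease inhibitors SPINK7 (4.81), SPINK6 (3.40) and SPINK9 (2.94) were higher at the edge like SPINK5, HTR4 was higher by 0.21, and FBXO38 did not pass the test (0.01, adjusted p = 0.636). Their r with C5orf46 over the edge samples was 0.688 for SPINK5, 0.458 for SPINK7, 0.396 for SPINK9 and 0.083 for SPINK6. The contig of CYP4A6 holds 8 genes, of which 3 were tested, and PDZK1IP1, a small membrane protein, was higher at the edge by 0.62 (SE 0.16, adjusted p = 0.000369), while a gene matched to TAF11 did not pass the test (0.00, adjusted p = 1).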

How the data were processed

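Skin and wound tissue was sequenced after poly-A enrichment. The provider filtered the reads for quality and adapters, aligned them to a reference and summed them by gene. The deposited counts are raw, whole numbers per gene, and the authors also gave FPKM values, used here only to compare levels between genes and as an alternative scale. Aligner, counting tool, strand setting and genome build are not given in the sources used here. Symbols came from the gene name or, where empty, from the protein match.

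C5orf46, CYP4A6, the gene lists and the comparisons were chosen with earlier results of these data known. The labels give each sample's state (day and location), and samples of a state were numbered by animal and wound. Counts were fitted with the quasi-likelihood test of edgeR 4.0.16 under R 4.3.3, with TMM factors, a low count filter (filterByExpr, 10 counts, total of 15), 29 states and a threshold of 0.05 on the adjusted p, over all 150 samples, and contrasts were the mean of a phase at 1 location minus day 0, or of all edge minus all center states. CPM used the total count, with a pseudocount of 1. The floor of 3 counts covers counting error only. Edge and center samples share an animal and wound by their labels, and their deviations from the state means had a mean r of 0.259 over genes, positive in 64 of 72 wounds.

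Named are the 2 genes, KRT10 and KRT5, the 5 named genes most like each, up to 3 tested neighbours on each side, the tested genes of family 4 and of the human 5q32 region, and of each other list up to 3 genes with the largest difference that passed the test. Exceptions are marked in the text, and some lists are given by counts only. Alternatives were library size without TMM, DESeq2 1.42.0, limma 3.58.1 on log2(1 + CPM), no filter, the animal or wound as replicate block, a phase and day 0 alone, wounds of an animal summed, other scales, and leaving out 4 samples of days 2 and 3 or each replicate number. The comparison relative to KRT10 was added after the values were seen. Levels, ranges and correlations were computed in Python 3.11.15 (scipy 1.17.1, numpy 2.4.6, pandas 2.3.3). The fit was tested on simulated counts. No sequences of these genes were used here.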

Additional observations from a re-analysis of the deposited data

Results flagged for a closer look

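Single samples of C5orf46 or CYP4A6 lay far from the other 5 of their state in 11 of 42 tests, 1 for each gene in each state of 6 samples (gap to the nearest sample, over the whole range, above Dixon's 95% critical value). Chance marks about 1 in 20 such groups, but that rate does not apply where most samples have 0 counts and a single read decides the ratio. In the center of day 1, sample 5 held C5orf46 at 4.28 (316 counts, the others at most 3) and CYP4A6 at 4.88 (486 counts, the others at most 16), and its KRT10 level of 12.61 was also above the 5.52 to 7.09 of the others. At the edge, day 4 sample 5 had C5orf46 at 2.73 (the others 4.42 to 5.10) and day 3 sample 3 had CYP4A6 at 1.61 (the others 7.35 to 9.10), with KRT10 at 12.04. For CYP4A6 in the center, day 6 sample 3 stood at 2.58 (80 counts). The other 6 rest on 16 counts or fewer and lie near the floor of 3 counts. These were C5orf46 at 0.07 in day 2 center sample 3, at 0.07 in day 5 center sample 5 and at 0.47 in day 7 center sample 6, and CYP4A6 at 0.88 in day 7 center sample 4, at 1.07 in day 11 center sample 1 and at 0.61 in day 13 center sample 5.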

How the results depend on the processing

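Under the alternatives, 286 recomputed values kept their direction and their side of the threshold or moved by less than the spread, 7 changed sign, 5 lost and 5 gained a call and 2 moved further. The cause of these changes was not tested. Without the 2 samples farthest from the keratin's median, r at the edge was 0.839 for C5orf46 with KRT10 and 0.164 with KRT5. C5orf46 at the edge on days 11 to 16 was -1.78 with DESeq2 (adjusted p = 0.0757) and -1.92 to -1.47 with each replicate number left out. On days 19 to 21 it was -1.85 with limma and -1.57 on that phase alone, both called, and in the center -6.49 to -2.34 with each number left out, the latter without a call. CYP4A6 at the edge on days 1 to 4 changed sign without a call: -0.04 with DESeq2, -0.11 with the animal as replicate block, -1.56 with limma and -0.20 to 0.13 with each number left out. With limma it was -2.45 on days 5 to 9 and -2.94 on days 11 to 16, both called, and with each number left out -2.47 to -1.56 on days 11 to 16 and -4.25 to -3.20 on days 19 to 21. The replicate block changed no other sign or call, for example C5orf46 at the edge on days 5 to 9 at -2.84. Few reads limit the center values, the 3 wounds per location of the last days limit the late ones, and a family member split by the counting cannot be seen.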
